A study of Mus musculus with 6 samples.

Results

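The transcription factors that set the fate of myeloid cells are described here in mouse bone marrow-derived macrophages of 2 Flt1 genotypes. The group holds 9 genes (Spi1, Maf, Zeb2, Mitf, Cebpa, Cebpd, Cebpe, Cebpb and Runx1), taken by symbol from the 26778 genes of the authors' deposited table, and all 9 were found there. Marrow cells of the C57BL/6 background were grown in RPMI with FCS and L292 conditioned medium, then, at day 7, placed in starvation medium at 2% O2 for 6 h and read by RNA sequencing. One group was Flt-1+/+ (VR1+/+, wild type, 3 libraries) and the other Flt-1+/- (VR1+/-, heterozygote, 3 libraries), so starvation and hypoxia are shared by both groups, and untreated cells were not analysed here. Flt1 encodes VEGF receptor 1. The labels do not say whether the libraries of a genotype came from separate animals, so each p-value rests on the spread between library preparations, which may be no more than technical.

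PU.1, the product of Spi1, and the C/EBP factors act together in marrow progenitors. A high level of PU.1 favours the macrophage fate, C/EBPα opens the granulocyte-monocyte path, and C/EBPε drives the late granule program of neutrophils. MAF limits the self-renewal of macrophages, ZEB2 maintains the identity of tissue macrophages, and MITF works with the TFE factors in lysosomes and osteoclasts. RUNX1 acts earlier, in blood stem cells and in the opening of the Spi1 gene, while C/EBPβ and C/EBPδ are induced by stress and inflammatory signals.

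The deposited table gives a mean normalized count per genotype, that is, a count of reads divided by a size factor for each library. Whole counts per library were recovered from those means for 26582 genes, including all 9 factors, and the libraries of a genotype are named A, B and C because the means do not tie them to the replicate numbers of the labels. Where several splits fitted a group mean above 5000, only a split with each library within 2-fold of that mean was accepted. Spi1, Maf and Zeb2 have means above 5000, and the other factors have means below it. Depth ran from about 25130000 to 42070000 counted reads per library. The macrophage markers were present at high levels in both genotypes (10 of 10 in the table, with summed deposited means of 884614 in wild type and 828197 in heterozygote). Most of each sum was Lyz2 (441691 and 458049) and Adgre1 (294266 and 258965). Of the 10, the authors' deposited table called 3 lower in the heterozygote (Mrc1, Csf1r and Cd68) and 0 higher, beside 3.52% lower and 2.51% higher among all tested genes. Flt1 itself was read at 3.70, 10.3 and 6.04 normalized counts in the wild type libraries and at 17.1, 12.9 and 8.19 in the heterozygote libraries, and it did not pass (adjusted p = 0.641, authors' deposited table). The ranges overlap and the level is not lower in the heterozygote, so Flt1 gives no check of the labels. A division that crosses the genotypes was seen in mt-Co2, a mitochondrial gene: it held between 4069.6 and 4751 normalized counts in wild type A and B and heterozygote A, and the other 3 libraries list it at 0.

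None of the 9 factors differed between the genotypes at the threshold used. An adjusted p is given for 8 of them in the authors' deposited table, which calls 0 at adjusted p under 0.05, where it calls 953 of all 15789 tested genes (6.04%). At an unadjusted p under 0.05 it holds 1 of the 8, Mitf, beside 15.8% of all tested genes. limma, run on log2(normalized count + 1) of the recovered libraries for genes with a mean of at least 10, also called 0 of 8 factors, beside 351 of 15372 genes (2.28%), and again only Mitf had an unadjusted p under 0.05, beside 17.0% of genes. What separated the factors was the spread between libraries of one genotype: Maf and Zeb2 were nearly level across all 6 libraries, while the highest and lowest library of one genotype differed from 2.41-fold to 11.6-fold for Cebpa, Cebpd and Cebpb. The 2-fold rule of the recovery can limit the spread shown by Maf and Zeb2, and it did not apply to the C/EBP genes. In bulk samples such as these, a change in the number of cells of a type and a change in RNA per cell cannot be told apart.

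**Figure D1:**
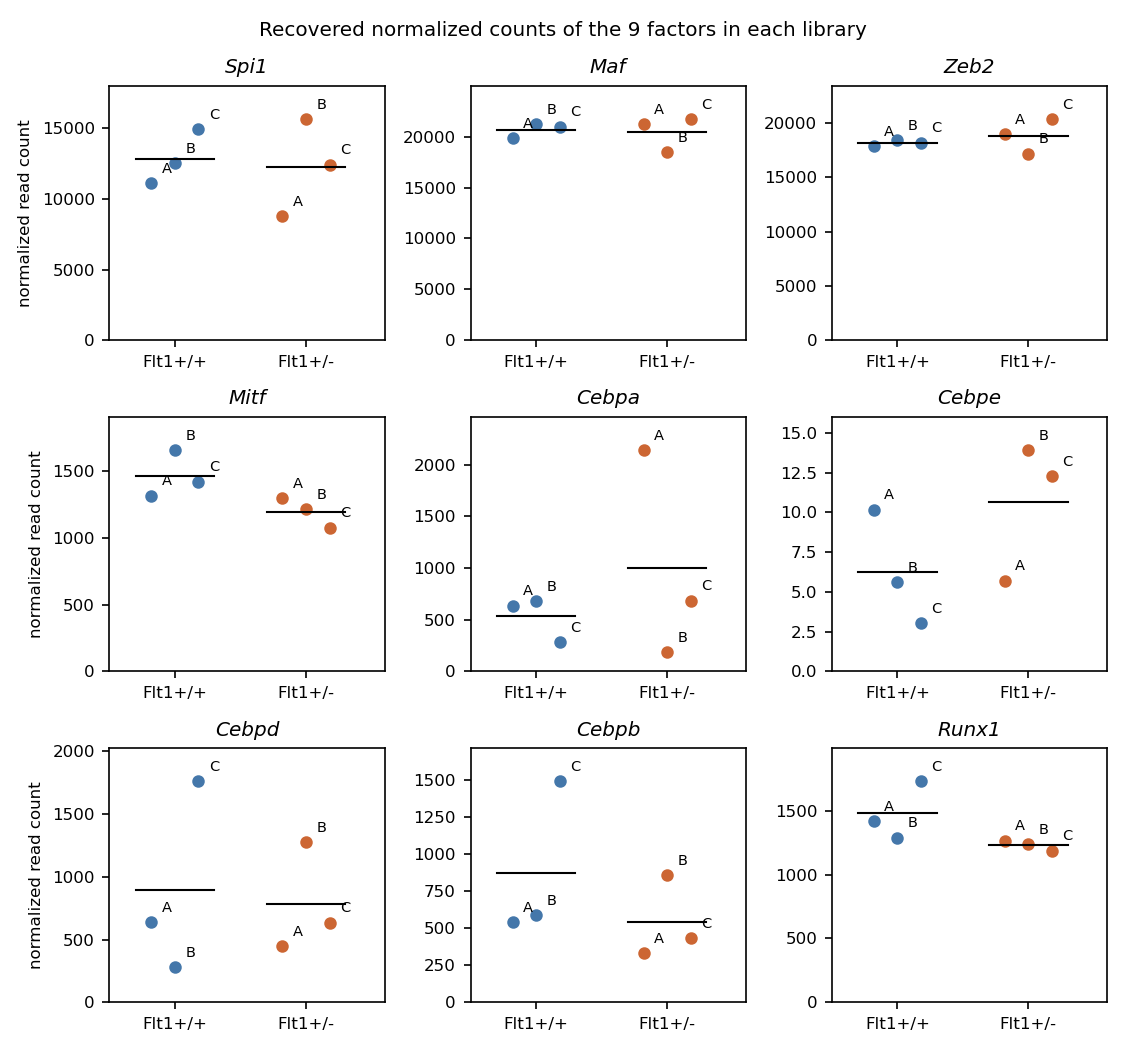
Normalized read count (vertical axis, from 0) of each factor in the 3 Flt1+/+ and 3 Flt1+/- libraries, lettered A to C within a genotype, with a bar at the group mean. Maf and Zeb2 lie on nearly flat lines, Mitf and Runx1 are lower in each heterozygote library, and Cebpa, Cebpd and Cebpb scatter across both genotypes.

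On the macrophage side, Spi1 was read at 11103, 12487 and 14883 normalized counts in wild type and at 8777, 15609 and 12383 in heterozygote, each in the order A, B, C as throughout. The heterozygote libraries held both the lowest and the highest value, so the groups overlap fully. The group means were 12824 ± 1913 (SD, n = 3) and 12256 ± 3418 (SD, n = 3). The log2 difference, heterozygote minus wild type, was -0.09 (95% interval -0.60 to 0.41) with an adjusted p of 0.864 by limma. Spi1 lies on chromosome 2 (chr2:91082390-91115756, plus strand, mm10).

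Maf, a basic leucine zipper factor, was read at 19852, 21191 and 20987 normalized counts in the wild type libraries and at 21236, 18485 and 21705 in the heterozygote libraries (chr8:115682942-115707794, minus strand). Heterozygote B was the lowest and heterozygote C the highest, and the whole range spanned a ratio of 1.17. The means were 20677 ± 722 and 20475 ± 1739.6 (SD, n = 3 each). The limma difference of -0.02 on the log2 scale had a narrow 95% interval, from -0.22 to 0.18, with an adjusted p of 0.944.

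Zeb2, a zinc finger repressor, was as even (chr2:44983632-45117395, minus strand). Its normalized counts were 17876, 18395 and 18209.5 in wild type and 18962, 17185 and 20356 in heterozygote, with means of 18160.2 ± 263 and 18835 ± 1589.6 (SD, n = 3 each). The wild type libraries lay inside the heterozygote range. The limma log2 difference was 0.05 (95% interval -0.14 to 0.24, adjusted p = 0.810).

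Mitf was the one macrophage-side factor whose groups did not overlap (chr6:97807052-98021349, plus strand). It was read at 1317, 1656 and 1421 normalized counts in wild type and at 1295, 1215 and 1077 in heterozygote. Each heterozygote library was below each wild type library, but heterozygote A and wild type A were nearly equal. The means were 1465 ± 174 and 1195 ± 110.1 (SD, n = 3 each), a log2 difference of -0.29 by limma (95% interval -0.58 to -0.0047, unadjusted p = 0.0472, adjusted p = 0.288). In the authors' deposited table its log2 fold change was -0.27 (standard error 0.14, adjusted p = 0.314). Mitf did not pass either test after adjustment.

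On the granulocyte side, Cebpa was read at 637, 679.8 and 282 normalized counts in wild type and at 2141, 184 and 683 in heterozygote (chr7:35119293-35121928, plus strand). Heterozygote A stood far above and heterozygote B was the lowest of all 6, a ratio of 11.6 between 2 libraries of the same genotype. The means of 533 ± 219 and 1002 ± 1017 (SD, n = 3 each) differ by less than the heterozygote SD. The limma log2 difference of 0.38 had a 95% interval from -1.59 to 2.35 and an adjusted p of 0.859. Without heterozygote A the limma log2 difference turned to -0.48 and without wild type C to -0.03, so the sign of that difference rests on single libraries.

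Cebpd, coding for C/EBPδ, was read at 638, 281 and 1758 normalized counts in wild type and at 445, 1273 and 632 in heterozygote (chr16:15887286-15891031, plus strand). Wild type held both extremes, a ratio of 6.26. The means were 892 ± 771 and 783 ± 434 (SD, n = 3 each). The direction depended on the scale: the log2 fold change of the authors' deposited table was -0.05 (standard error 0.23, adjusted p = 0.964) and limma a log2 difference of 0.06 (95% interval -1.53 to 1.65, adjusted p = 0.977). With a term for the mt-Co2 library division the limma difference was -0.45 (adjusted p = 0.582).

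Cebpe was close to the limit of detection in every library (chr14:54710363-54712174, minus strand). The recovered whole counts were 11, 6 and 3 reads in wild type and 7, 14 and 9 reads in heterozygote, or 10.2, 5.60 and 3.02 against 5.71, 13.9 and 12.3 normalized counts. The groups overlap, since wild type A was above heterozygote A. The means were 6.26 ± 3.62 and 10.6 ± 4.35 normalized counts (SD, n = 3 each). The authors' deposited table gives an unadjusted p of 0.374 and no adjusted p, and the mean was under the minimum of 10 for limma. Without that minimum the limma log2 difference was 0.72 (adjusted p = 0.676).

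Of the 2 factors assigned to both sides, Cebpb was read at 541, 590.3 and 1495 normalized counts in wild type and at 331, 859 and 435 in heterozygote (chr2:167688915-167690418, plus strand). Wild type C was highest, heterozygote B came next, and heterozygote A was lowest, so the groups overlap. The means were 875 ± 537 and 542 ± 279 (SD, n = 3 each), with a limma log2 difference of -0.65 (95% interval -1.77 to 0.48, adjusted p = 0.547). Runx1 was read at 1417, 1289 and 1730.2 in wild type and at 1266, 1239 and 1186 in heterozygote (chr16:92601466-92826149, minus strand). As with Mitf, each heterozygote library was below each wild type library. The means were 1479 ± 227 and 1231 ± 40.7 (SD, n = 3 each), and the limma log2 difference of -0.25 (95% interval -0.54 to 0.04) had an adjusted p of 0.357. Mitf and Runx1 were thus 2 of the 8 fitted factors with all heterozygote libraries below all wild type libraries, a pattern that 12.3% of all fitted genes showed, and 11.4% showed the reverse.

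**Figure D2:**
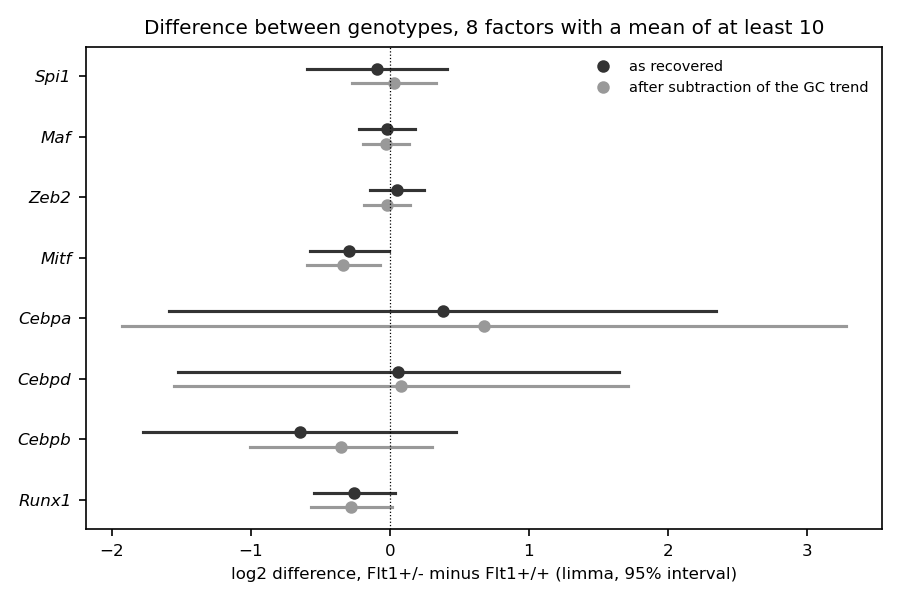
limma log2 difference between genotypes (horizontal axis, Flt1+/- minus Flt1+/+) with its 95% interval for the 8 factors with a mean of at least 10, as recovered (dark) and after each library's trend with GC content was subtracted (grey). Intervals are narrow for Maf and Zeb2 and wide for Cebpa and Cebpd, and those that leave out 0 belong to Mitf alone.

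Set side by side, the 4 macrophage-side factors (Spi1, Maf, Zeb2, Mitf) had log2 ratios of group means from -0.29 to 0.05 with a median of -0.04, and the 3 granulocyte-side factors (Cebpa, Cebpd, Cebpe) from -0.19 to 0.91 with a median of 0.68, beside a median of -0.01 over all tested genes. The granulocyte-side median is the value of Cebpe, which had 3 to 14 reads per library and no adjusted p. Sides follow textbook roles, and Cebpa, whose product opens the granulocyte-monocyte path, was counted on the granulocyte side. These are descriptions of few genes, and the granulocyte-side values are those with the widest spread between libraries. The balance within each library was therefore taken as the log2 level of a C/EBP gene minus that of Spi1 in the same library. For Cebpa it was -4.12, -4.20 and -5.72 in wild type and -2.03, -6.40 and -4.18 in heterozygote. Both the highest and the lowest balance were heterozygote libraries, and the mean difference of 0.47 had p = 0.9 in a two-sided exact permutation test of 3 against 3 libraries, which cannot go below 0.1. For Cebpd the mean difference was 0.16 (exact p = 1.0), for Cebpe 0.82 (exact p = 0.3) and for Cebpb -0.55 (exact p = 0.3). After Benjamini-Hochberg adjustment over these 4 balances the exact permutation p-values were 1.0 for Cebpa and Cebpd and 0.6 for Cebpe and Cebpb.

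Levels of different genes can be compared only per length, so normalized counts were divided by the length of all annotated exons of a gene in kilobases. Per kilobase Spi1 was highest at 4758 ± 710 in wild type and 4548 ± 1268 in heterozygote (SD, n = 3 each, as for the levels that follow), and Maf was next at 2509 ± 87.6 and 2485 ± 211. Zeb2 followed at 911 ± 13.2 and 944 ± 79.7. The ranges of Spi1, Maf and Zeb2 over the 6 libraries did not touch, but Cebpb in wild type C (994) reached into that of Zeb2 (862 to 1021). This overlap depends on the length used: per kilobase of its longest transcript Zeb2 ran from 1883 to 2231, above every Cebpb value.

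Cebpb came after them per kilobase in wild type, at 582 ± 357, and was at 360.2 ± 186 in heterozygote. Cebpd was at 238 ± 206 and 209 ± 116, Mitf at 236 ± 28.1 and 193 ± 17.8, and Cebpa at 202 ± 82.9 and 380.3 ± 386. Over the 6 libraries the ranges of these 4 neighbours overlapped: 220 to 994 for Cebpb, 74.9 to 469 for Cebpd, 174 to 267 for Mitf and 69.8 to 812 for Cebpa. Within each single library, however, Cebpb was above Mitf by this length. Runx1 was lower at 123 ± 18.9 and 102 ± 3.38, and Cebpe was last at 5.05 ± 2.92 and 8.57 ± 3.50. The place of Runx1 depends on the length used: per kilobase of its longest transcript it was at 252 ± 38.8 and 210.0 ± 6.94, and its wild type mean was then above those of Cebpd (238) and Cebpa (203). With the length of the longest transcript instead, 5 of the 9 (Spi1, Maf, Zeb2, Cebpb and Cebpe) kept their wild type rank.

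The spread between libraries of one genotype separated the C/EBP genes from the others. On the log2 scale the pooled within-genotype SD was 1.35 for Cebpa, 1.08 for Cebpd and 0.76 for Cebpb, larger than that of 98.0%, 96.9% and 93.5% of all 15372 fitted genes. Spread depends on the mean count, so each factor was also set beside the genes whose mean lay within a factor of 1.41 of its own: Cebpa exceeded 99.4% of 2053 such genes, Cebpd 99.0% of 2110 and Cebpb 97.4% of 2070. Spi1, with an SD of 0.33, exceeded 91.5% of its 389 neighbours in mean. Runx1 (0.16) and Mitf (0.15) lay near the middle, with 59.4% and 57.0% of their neighbours below them. Maf (0.10) and Zeb2 (0.09) were below most, with 38.5% of 143 and 28.3% of 212 neighbours below them. Spi1, Maf and Zeb2 have means above 5000, where the 2-fold rule can limit the recovered spread, as it can for their neighbours.

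**Figure D3:**
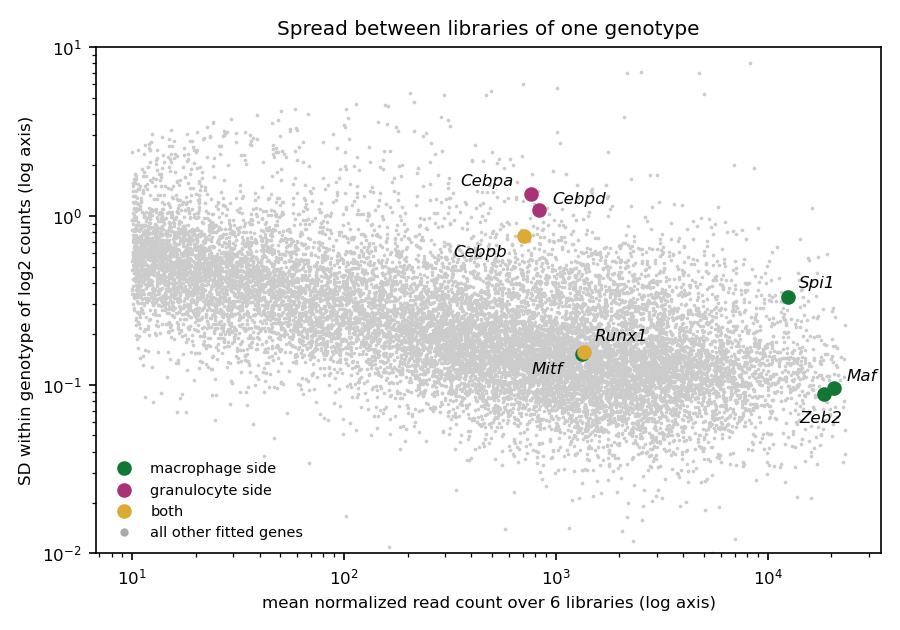
Pooled SD between libraries of one genotype (vertical axis, log2 counts on a log axis) against mean normalized count (horizontal axis, log scale) for 15372 genes in grey and 8 factors in colour. Cebpa, Cebpd and Cebpb lie above nearly all genes of like mean, Spi1 above most, and Maf and Zeb2 at the lower right within the cloud of genes.

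The libraries in which these genes were high crossed the genotypes. Cebpb and Cebpd were both highest in wild type C, at 1.26 and 1.34 above their own 6-library mean on the log2 scale, and next highest in heterozygote B, at 0.46 and 0.87 above it. Spi1 was also above its mean in those libraries, by 0.27 and 0.34. Cebpa ran the other way, with a log2 deviation of -1.0 in wild type C, -1.62 in heterozygote B and 1.92 in heterozygote A. In heterozygote A Cebpb deviated by -0.91 and Spi1 by -0.49.

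A measure of the libraries moves along this order. Genes with transcripts of 60 to 65% GC (450 genes) had a median deviation of 0.48 in wild type C, 0.40 in heterozygote B and -0.69 in heterozygote A on the log2 scale, and between -0.15 and 0.07 in the other 3 libraries. The 41 genes above 65% GC ran further, from -1.26 in heterozygote A to 0.81 in wild type C. The transcripts of Cebpb hold 67.2% GC, those of Cebpe 61.5%, of Cebpa 61.2%, of Spi1 56.2% and of Cebpd 51.1%, and the other 4 factors lie between 46.2% and 49.6%. Cebpb and Spi1 thus moved with genes of like GC content, Cebpa moved against them, and Cebpd moved by more than 50 to 55% GC genes, whose medians stayed between -0.07 and 0.05.

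When each library's GC trend was subtracted, the residual SD of Cebpb fell from 0.76 to 0.43 and that of Spi1 from 0.33 to 0.19, while that of Cebpa rose from 1.35 to 1.75 and that of Cebpd was 1.08 before and 1.09 after. limma then called 843 of 15321 genes (5.5%) and 0 of the 8 factors. Mitf was nearest, with a log2 difference of -0.33 (95% interval -0.60 to -0.07) and an adjusted p of 0.136 by limma, followed by Runx1 at an adjusted p of 0.249. The subtraction was chosen after the data were seen.

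**Figure D4:**
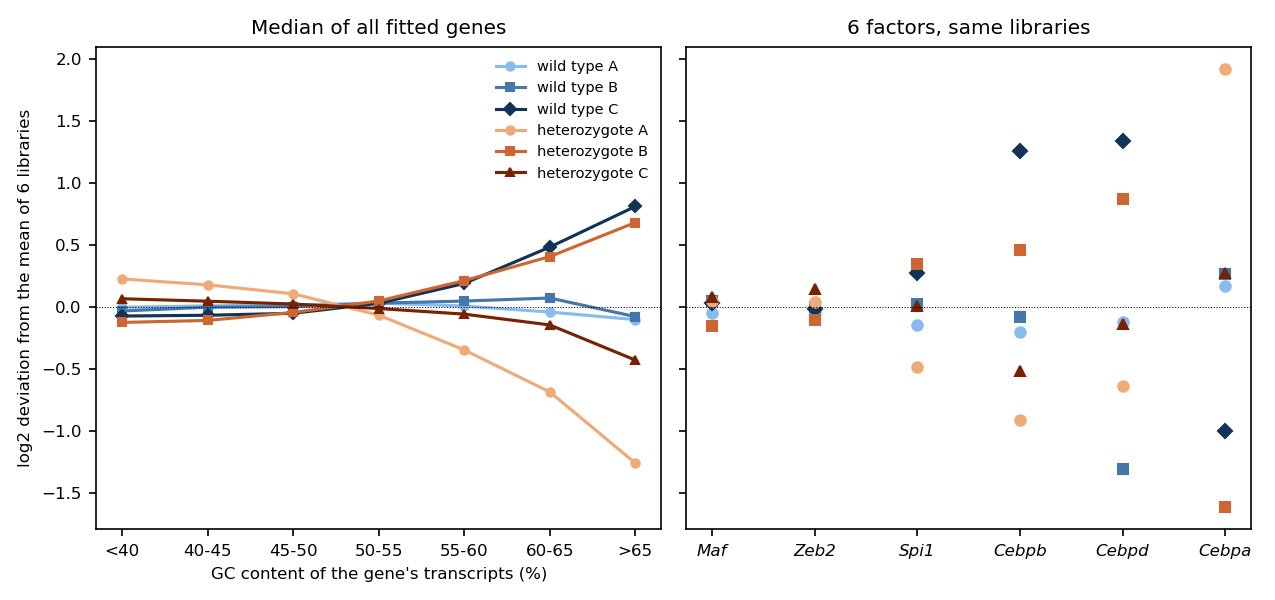
Left, median log2 deviation from the 6-library mean (vertical axis) of all fitted genes grouped by GC content of their transcripts (horizontal axis, %), one line per library; right, the same deviation for 6 factors. Wild type C and heterozygote B rise and heterozygote A falls with GC content; Cebpb follows that order, Cebpa the opposite one, and Maf and Zeb2 stay near 0.

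The library division by mt-Co2 gives a second view within sets. It was drawn from the counts of 1 gene in these same libraries, named after its values were seen, and from no label. Among the 3 libraries with mt-Co2 reads, Cebpa was 1.70 higher on the log2 scale in the heterozygote, and among the 3 listed at 0 it was 0.33 higher. For Cebpb the within-set differences were -0.77 and -1.29, for Mitf -0.19 and -0.31 and for Runx1 -0.09 and -0.51, each with the same sign in both sets. Cebpd (0.07 and -0.97), Cebpe (-0.36 and 1.81) and Maf (0.05 and -0.07) changed sign between sets. Spi1 (-0.42 and -0.10) and Zeb2 (0.06 and 0.04) kept their sign. Each set has a single library of one genotype, so the within-set values are a description. With genotype and library set as terms over all 6 libraries, limma called 512 of 15372 genes (3.33%) and 0 of the 8 factors. Cebpb came nearest at a log2 difference of -1.03 (unadjusted p = 0.00965, adjusted p = 0.101 by limma), where it was -0.65 without the term. Cebpa went from 0.38 to 1.02 (adjusted p = 0.309 by limma) and Spi1 from -0.09 to -0.26 (adjusted p = 0.276 by limma), while Runx1 was at -0.30 and Mitf at -0.25.

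Cebpa and Cebpb are intronless genes that ran in opposite directions across the same libraries, and their promoters are shown. Cebpd also ran opposite to Cebpa, but no promoter sequence was matched for it. RefSeq promoter sequences (GRCm38.p6) were matched for 5 of the 9 factors (Zeb2, Cebpb, Mitf, Cebpa and Runx1). The 250 bases before the annotated start are printed 5′ to 3′ on the plus strand, chr7:35119043-35119292 for Cebpa and chr2:167688665-167688914 for Cebpb, with capitals at matches on either strand to TTGCGC (from the C/EBP consensus), TGACG (the core of CREB and ATF sites) and TATAAA (the TATA box).
Cebpa promoter: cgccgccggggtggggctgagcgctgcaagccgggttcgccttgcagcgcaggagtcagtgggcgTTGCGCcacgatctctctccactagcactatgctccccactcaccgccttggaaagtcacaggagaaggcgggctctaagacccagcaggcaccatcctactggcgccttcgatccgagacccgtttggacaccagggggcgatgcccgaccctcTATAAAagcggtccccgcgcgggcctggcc
Cebpb promoter: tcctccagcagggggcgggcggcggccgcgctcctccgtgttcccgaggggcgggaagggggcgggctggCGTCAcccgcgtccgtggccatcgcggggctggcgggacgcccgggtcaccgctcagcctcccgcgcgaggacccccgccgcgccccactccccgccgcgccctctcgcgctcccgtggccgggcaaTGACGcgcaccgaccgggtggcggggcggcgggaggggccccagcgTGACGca
The Cebpa window holds 1 TTGCGC, starting 185 bases before the start site, and 1 TATAAA 30 bases before it, and 66.4% of its bases are G or C. The Cebpb window holds 3 matches to TGACG (1 of them on the minus strand, read as CGTCA) and no TTGCGC or TATAAA, with 81.6% G or C. Over 32851 RefSeq promoters of this length, 5.34% hold TTGCGC, 17.8% TGACG and 12.4% TATAAA, and the median GC content is 52.4%. Of the other matched windows, Zeb2 and Mitf each hold 2 matches to TGACG (those of Mitf overlap, on opposite strands), Mitf also holds 1 TATAAA, and Runx1 holds none of the 3 motifs.

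Several of the 9 loci share sequence with a gene on the opposite strand, and whether reads were counted by strand is not given in the sources used here. Cebpb overlaps 908 bases of Tmem189, which was read at 2796 to 5407 normalized counts, and Cebpd overlaps 1808 bases of Spidr, at 600.3 to 924. Zeb2 overlaps its antisense gene Zeb2os, at 767 to 1103. The partners of Cebpa (Gm45091, at most 5.03) and Runx1 (Gm26626, at most 4.10) were barely read.

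Other factors of the same lineages were examined beside the 9, in lists chosen with earlier results of these data known. The shares over all tested genes are printed beside their calls as a description and not as a test. Of 13 further macrophage and monocyte factors, all tested, 5 were lower in the heterozygote and 0 higher in the authors' deposited table, where 3.52% of all tested genes were lower and 2.51% higher. Klf4, a monocyte factor, was at 774, 1168 and 1738 normalized counts in wild type and at 275, 444 and 381 in heterozygote, 3.35-fold lower with no overlap (adjusted p = 7.59e-07, authors' deposited table). Bhlhe40 (864 to 468 in the deposited means), Egr2 (687 to 313), Tfec, an MITF relative (338 to 199), and Spic, the factor of red pulp macrophages (3192 to 2276), made up the rest. The median log2 ratio of the 13 was -0.48 beside -0.01 over all tested genes. limma on the recovered libraries called 2 of the 5, Klf4 and Bhlhe40, and at most 1 with a library left out.

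Of 9 further granulocyte factors, 6 were tested in the authors' deposited table and 0 were called at adjusted p under 0.05, beside 6.04% of all tested genes. By limma 0 of 6 were called, beside 2.28% of all fitted genes, and their median log2 ratio was -0.22. Rara, the retinoic acid receptor of promyelocytes, came nearest, at 251, 296 and 377 normalized counts in wild type and 135, 245 and 192 in heterozygote (adjusted p = 0.126, authors' deposited table). Gfi1, Klf5 and Lef1 had too few reads for an adjusted p. Of 12 progenitor and erythroid-megakaryocyte factors, 8 were tested and 0 called by the deposited test or by limma, beside the same shares. Their median log2 ratio was 0.07, with Hhex and Meis1 nearest (adjusted p = 0.146 for both, authors' deposited table). With so few genes in these lists, 0 calls cannot be told apart from the shares over all genes.

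Among 15 partners and family members, 14 were tested and 3 were lower in the heterozygote, beside 3.52% lower among all tested genes, with a median log2 ratio of -0.33. The small MAF genes Maff and Mafk, which pair with other basic leucine zipper proteins and lack the activating domain of Maf, were 3.70-fold and 2.87-fold lower. Maff was read at 311, 255 and 375 normalized counts in wild type and at 72.6, 105 and 76.4 in heterozygote (adjusted p = 2.39e-11 in the authors' deposited table, 0.0141 by limma). Mafk passed in the authors' deposited table (adjusted p = 7.15e-06) but not by limma (adjusted p = 0.0564). Id2, which blocks E proteins, was at 3899.7 ± 57.0 and 2598 ± 98.7 (SD, n = 3 each) and passed both. With a library left out limma called from 0 to 2 of the list, and 0 without wild type C or heterozygote C. Cbfb, the partner of RUNX1, and Ets2 were not called.

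Genes that the factors are known for were counted next, from lists of textbook role. These lists too were chosen with earlier results of these data known, so their calls are a description and not a test. Of 11 tested granule genes known to need C/EBPε, 7 were higher in the heterozygote and 0 lower, beside 2.51% higher among all tested genes, with a median log2 ratio of 3.08 beside -0.01 over all tested genes. Ngp rose from 10.2, 11.2 and 13.1 to 674, 571 and 879 normalized counts, 61.7-fold (adjusted p = 1.1e-90 in the authors' deposited table, 0.000115 by limma), and Ltf, lactoferrin, rose 39.2-fold. Camp, Chil3, Retnlg, Ly6g and Cd177 were the others, while Lcn2, Mmp8, Mmp9 and Cybb were not called. limma called 5 of the 7, without Ly6g and Cd177, and from 3 to 6 with a library left out. Cebpe itself had 3 to 14 reads in the same libraries, with means of 6.26 normalized counts in wild type and 10.6 in heterozygote. These are too few reads to show a change or its absence. Of the 12 genes of this list, 7 are also neutrophil markers, 5 of them among those called.

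The neutrophil marker list moved with the same comparison: 8 of its 11 tested genes were higher and 1 lower, beside the same 2.51% and 3.52%. Its 15 genes summed to between 8917 and 9144 normalized counts in wild type and between 9549.6 and 10651 in heterozygote, most of it Csf3r. Without Csf3r the other 14 summed to between 1047 and 1217 normalized counts in wild type and between 4052 and 4891 in heterozygote. Among these 14, S100a9 rose from a deposited mean of 91.4 to 1507 and S100a8 from 47.1 to 774. Both were called higher in the authors' deposited table and by limma. The primary granule genes Elane and Ctsg were listed at 0 in wild type and had deposited means of 0.663 and 0.815 in heterozygote, and Mpo had 4.96 and 3.09. Prtn3, another of them, was at 0 in all wild type libraries and at 0, 2.98 and 4.10 normalized counts in heterozygote. The part of neutrophils in the granule gene values was not tested. Csf3r, the G-CSF receptor and a known C/EBPα target, fell from 7889.9 ± 199 to 5436 ± 359 (SD, n = 3 each; adjusted p = 1.98e-05 in the authors' deposited table, 0.0255 by limma). It was the 1 call among the 3 tested genes of the 9 on the C/EBPα list, and with a library left out limma called 1 gene of that list without heterozygote B and 0 without each of the others.

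The other target lists had calls in the lower direction only, where 3.52% of all tested genes were called lower. Of 11 MAF linked genes, 6 were lower, led by F13a1, a factor XIII subunit, from 3481 ± 265 to 896 ± 138, and Cd163, the haptoglobin-haemoglobin receptor, from 234 ± 16.1 to 70.8 ± 8.47 (SD, n = 3 each); Mrc1, Hmox1, C1qb and Stab1 were the others, and the median log2 ratio was -0.72. limma could fit 8 of the 11 and called 3, and from 2 to 5 with a library left out. Maf in the same libraries differed by a ratio of 0.990. Of 7 tested C/EBPβ linked genes, 3 were lower (Ptgs2 3.53-fold, Ccl3 2.18-fold and Tnf 1.87-fold), all 3 also by limma with 6 libraries but from 0 to 3 with a library left out. Of 13 PU.1 linked genes 2 were lower, Csf1r, the receptor for M-CSF (deposited means 45697 and 31060.1), and Cd68, and of 7 tested MITF-TFE genes 1 was lower, Atp6v0d2 (389 ± 14.5 and 281 ± 4.49, SD, n = 3 each), with median log2 ratios of -0.13 and -0.18. limma called Cd68 of the 8 PU.1 genes it could fit and 0 of 6 MITF-TFE genes; with a library left out it called 1 PU.1 gene without heterozygote B, 0 without each of the others, and 0 MITF-TFE genes. Markers of other cells also differed in the authors' deposited table, beside 3.52% lower and 2.51% higher among all tested genes. Igkc and Jchain of B and plasma cells were lower, and their list of 5 summed to 294 to 491 in wild type and 24.8 to 49.1 in heterozygote. Of the remaining markers, 3 of 10 for macrophages, 1 of 4 dendritic (Ccr7) and Cd4 were lower, and 1 of 6 stromal (Acta2), 1 of 4 endothelial (Vwf) and 1 of 3 erythroid and megakaryocyte markers (Gp1ba) were higher. Pf4 and Itga2b, the other tested genes of that last list, had lower heterozygote means and were not called. By limma Igkc, Acta2 and Gp1ba were called, and Jchain, Ccr7, Cd4 and Vwf were not. It called 2 of the 6 macrophage markers it could fit. The part of those cells in these values was not tested.

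**Figure D5:**
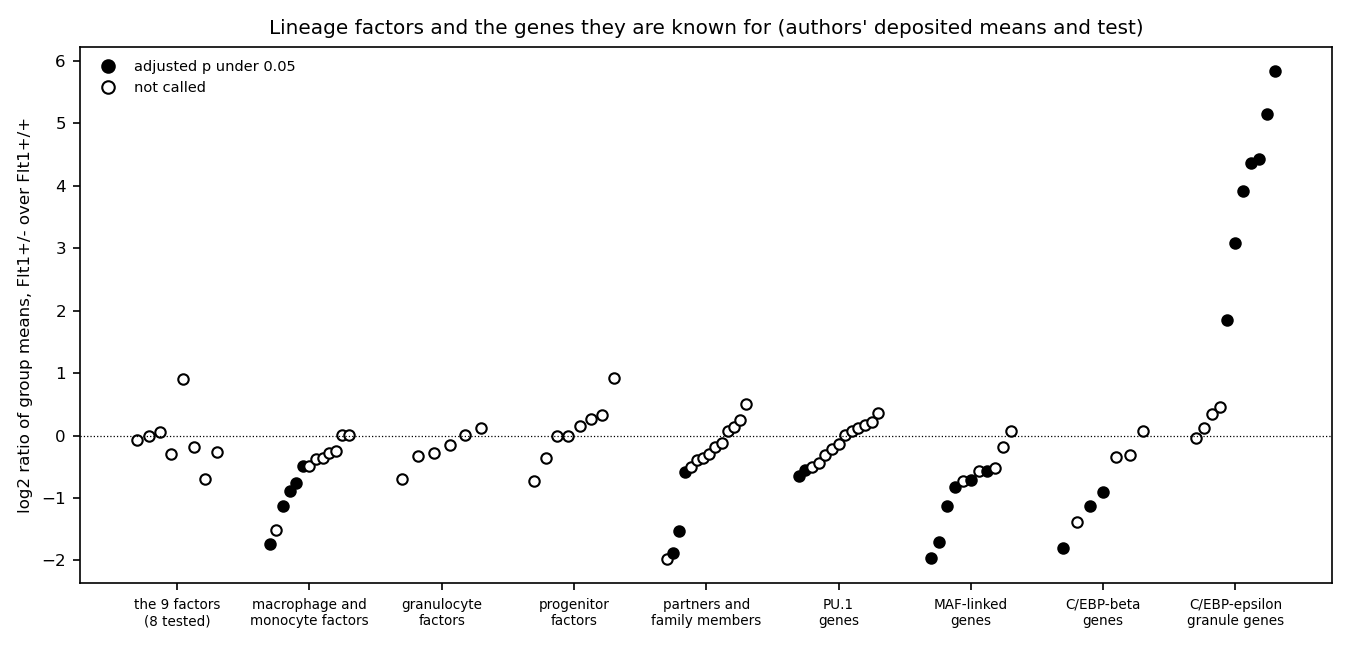
Log2 ratio of the authors' deposited group means (vertical axis, Flt1+/- over Flt1+/+) for each tested gene of the 9 factors and 8 gene lists, filled where the deposited adjusted p is under 0.05. None of the 8 tested factors is filled; 7 C/EBPε granule genes are filled above 0, and filled genes of the other lists are below 0.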

How the data were processed

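RNA sequencing of 3 wild type and 3 heterozygote libraries was summarised by the authors in one table. Per the labels' protocols, total RNA was depleted of rRNA and made into stranded libraries. FastQC, TopHat 1.0.0 and Cufflinks with build mm10 are named, without roles, per the submitters' processing notes, and how reads were counted, and whether by strand, is not given in the sources used here. Per the file headers, the columns are those that DESeq2 writes. The authors' signal for a group is the mean over its libraries of normalized counts, each a read count over that library's size factor. The deposited log2 fold changes are the authors' and are drawn towards 0, the deposited score is that value divided by its standard error, and the authors' p-values are two-sided. The adjusted value is missing for 10989 of 26778 genes, which stayed missing.

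Each group mean is a sum of 3 whole counts divided by 3 size factors, and those counts were solved for in both groups for 26582 genes (99.3%). Several solutions for a mean above 5000 were cut to those with each library within 2-fold of the mean. Group means above 25000 were not searched, so Csf1r, Lyz2, Hmox1 and Stab1, among others, are outside the limma and GC results. The recovered genes held 67.7% of the summed group means in wild type and 68.6% in heterozygote. The search was tested on simulated data. limma 3.58.1 in R 4.3.3 was run with a mean-variance trend on log2(normalized count + 1) for 15372 genes with a mean of at least 10, with Benjamini-Hochberg adjustment over all of them, and was also tested on simulated data. The deposited test was counted at adjusted p under 0.05 and a mean of at least 1. Log2 ratios of group means used a pseudocount of 1, so changes of genes with few reads are understated. Pairs of libraries of one genotype differed well beyond counting noise (chi-square per degree of freedom from 22.8 to 75.0), so no pair was treated as one library.

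Lengths and GC content came from GENCODE vM21 (GRCm38), which covers 99.7% of fitted genes. Python 3.11.15, numpy 2.4.6, pandas 2.3.3, scipy 1.17.1 and numba 0.67.0 did the rest. The 9 factors and the lists were chosen with earlier results of these data known, and 1 list gene is not reported here. Named genes were the 9 factors, Flt1 and up to 4 genes of each list with the smallest deposited adjusted p. Spic, Camp, Ly6g, Cd177, C1qb and Stab1 (called list genes beyond the first 4), Cbfb, Ets2, Gfi1, Klf5, Lef1, Elane, Ctsg, Mpo, Lcn2, Mmp8, Mmp9, Cybb, mt-Co2 and the overlapping genes were named after their values were seen. Alternatives were other thresholds, pseudocounts, filters, scalings and lengths, a library set term, leaving out each library, and subtraction of each library's median deviation in 20 bins of GC content.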

Additional observations from a re-analysis of the deposited data

How the results depend on the processing

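None of the 8 fitted factors was called under any limma setting tried, nor in the deposited test at adjusted p under 0.1 or 0.01 or without a minimum mean. Directions near 0 were not stable. After the GC subtraction the log2 difference of Spi1 was 0.030 and that of Zeb2 -0.021, the reverse of their signs before it, and with the library set term that of Cebpd was -0.45. The same term moved Cebpb from -0.65 to -1.03 (adjusted p = 0.101 by limma), Cebpa from 0.38 to 1.02 and Spi1 from -0.09 to -0.26. Leaving out each library in turn moved the limma log2 difference of Spi1 between -0.29 and 0.13, Maf between -0.061 and 0.055, Zeb2 between -0.0085 and 0.11, Cebpa between -0.48 and 1.28 and Cebpd between -0.58 and 0.75. Mitf (-0.36 to -0.20), Runx1 (-0.35 to -0.13) and Cebpb (-1.04 to -0.18) kept their sign without each library, with adjusted p from 0.241 to 0.917 by limma. The cause of these changes was not tested.

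Calls in the 10 gene lists were 28 in the deposited test, 32 at adjusted p under 0.1, 17 under limma and 22 under limma after the GC subtraction. With limma and each library left out in turn they ranged from 6 (without wild type B, wild type C or heterozygote C) to 16 (without heterozygote B), with 10 without heterozygote A and 14 without wild type A, in fits with fewer samples. Over all genes limma called 351, 44 without wild type B and 393 without heterozygote B, 512 with the library set term and 843 after the GC subtraction, against 953 in the deposited test. With the longest transcript as length, 5 of the 9 factors kept their rank. No paired analysis was possible because the recovered libraries cannot be tied to the replicate numbers of the labels. Cebpe had at most 14 reads in a library.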
